A study of Drosophila melanogaster with 18 samples.

Results

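The circadian clock genes period (per), timeless (tim), Clock (Clk), cycle (cyc), vrille (vri), Pdp1, clockwork orange (cwo) and cryptochrome (cry), and the output gene takeout (to), were followed in whole Drosophila melanogaster males. The 9 genes were chosen by name. Of these, 8 have a probe set in the annotation used here, out of 11982 genes with one, and to, which has no named probe set, is not analysed here. tim and cwo have 2 probe sets each, and the one with the larger mean over all arrays stands for the gene. tim and vri lie on chromosome arm 2L, Clk, cyc and Pdp1 on 3L, cwo and cry on 3R, and per on the X, whose inheritance the experiment altered.

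The fly clock runs as interlocked feedback loops. The proteins CLK and CYC form a dimer that activates per, tim, vri, Pdp1 and cwo, and PER and TIM later enter the nucleus and inhibit that dimer. VRI represses and PDP1 activates Clk, and VRI also represses cry, so that in flies on a light-dark cycle the transcripts of per, tim and vri peak at another time of day than those of Clk and cry, while cyc shows little rhythm. In whole-body RNA the clocks of the fat body, gut, eye and other tissues are measured together with the few pacemaker neurons, and fewer cells of a type cannot be told apart from less RNA per cell.

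The males belonged to 3 treatments, all derived from the outbred population LHm, at day 14 of culture (4 days adult). Control males inherited the X from the mother in the usual way. CDX males were sons of a Control father and a DX mother, a female whose X-chromosomes are joined, so they carried the father's X for 1 generation and the mother's Y. MLX males carried an X passed from father to son over many generations, with males from recombination boxes added back, and, like CDX males, they came from DX mothers. Each treatment had 3 populations with 2 arrays each, 18 arrays in all, and an array is given here as population and array number (Control 1-2 is array 2 of Control population 1). The labels give 1 male per array, whereas the methods describe a pool of males, and the populations of a treatment are the replicates. The methods place the stock on a light-dark cycle, and no source used here gives the hour at which the males of an array were collected.

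All values are log2 expression after RMA (robust multi-array average) as deposited, from 2.64 to 15.34. The array medians ran from 6.97 to 7.08 and the correlations between arrays from 0.9945 to 0.9980, and no pair of arrays was identical. The 18 arrays, rather than a depth, limit the precision. The labelled tissue was checked by its markers. Arr1, the photoreceptor arrestin, lay between 13.47 and 13.61, Acp36DE of the accessory gland between 13.74 and 14.25, and Pdf, the pacemaker neuropeptide, lay between 8.40 and 8.75. Yp1, a yolk protein of females, ranged from 4.82 to 9.19, and the mean of 13 yolk and eggshell genes ranged from 5.66 to 7.30 in Control, from 5.74 to 7.77 in CDX and from 5.76 to 8.08 in MLX arrays.

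tim, whose protein is degraded in light and partners PER, varied most among the 8 genes. In Control males its log2 expression was 9.56 and 10.53 in population 1, 10.96 and 10.60 in population 2, and 10.80 and 9.54 in population 3. In CDX males the corresponding values were 10.58 and 10.41, 10.57 and 10.70, and 10.92 and 9.69. In MLX males they were 11.30 and 10.45, 11.09 and 10.87, and 9.49 and 9.92. The range over all 18 arrays was 1.81 log2 units (3.51-fold) and lay within MLX, whose lowest and highest arrays enclosed the narrower ranges of Control and CDX. A gap of 0.50 separated 5 arrays at or below 9.92 (Control 1-1 and 3-2, CDX 3-2, MLX 3-1 and 3-2) from 13 arrays at or above 10.41, so every treatment had at least 1 array on each side. Of these 5 arrays 4 came from populations numbered 3, at least 1 in each treatment. In MLX population 3 both arrays were low, whereas in Control populations 1 and 3 and CDX population 3 a low and a high array came from the same population. The mean log2 expression was 10.33 ± 0.63 in Control, 10.48 ± 0.42 in CDX and 10.52 ± 0.71 in MLX (SD, n = 6 arrays). A second, dimmer probe set of tim ranged from 5.03 to 6.21 and followed the first with r = 0.69 over 18 arrays.

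vri, which encodes the repressor of Clk and cry, was lowest in the same 5 arrays as tim. In Control males it was 9.40 and 9.85 in population 1, 9.89 and 9.83 in population 2, and 10.00 and 9.42 in population 3. In CDX males it was 9.84 and 9.72, 10.02 and 9.85, and 10.13 and 9.50. In MLX males it was 10.24 and 9.89, 10.03 and 9.87, and 9.44 and 9.68. The total range was 0.84 log2 units (1.79-fold), less than that of tim, and MLX 1-1 was the highest array for both genes. The means were 9.73 ± 0.25 in Control, 9.84 ± 0.22 in CDX and 9.86 ± 0.28 in MLX (SD, n = 6 arrays).

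per, the partner of tim in the negative limb, changed over a narrower range of 0.54 log2 units (1.46-fold). Its lowest, median and highest arrays were at 6.29, 6.70 and 6.75 in Control, 6.47, 6.70 and 6.76 in CDX, and 6.43, 6.55 and 6.84 in MLX males. Control 1-1 was its lowest and MLX 1-1 its highest array, as they were for vri. The means of 6.63 ± 0.17, 6.66 ± 0.12 and 6.61 ± 0.16 (SD, n = 6 arrays each) overlapped.

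Of the positive limb, Clk was highest where tim was low in some of the arrays only. Its lowest, median and highest arrays were at 9.16, 9.27 and 9.63 in Control, 9.11, 9.20 and 9.37 in CDX, and 9.12, 9.23 and 9.69 in MLX males. The highest values, 9.69 and 9.63, came from MLX 3-2 and Control 3-2, which were among the 5 arrays low in tim, whereas Control 1-1, also low in tim, had a Clk value of 9.16. cyc, the partner of Clk, was the steadiest of the 8 genes, with a range of 0.28 log2 units. cyc lay between 7.98 and 8.15 in Control and between 8.09 and 8.26 in CDX males and reached 8.25 in MLX males, with means of 8.06 ± 0.07, 8.21 ± 0.06 and 8.14 ± 0.09 (SD, n = 6 arrays each).

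cry, the blue-light receptor that resets the clock, ran against tim. In Control males it was 10.05 and 9.74 in population 1, 9.66 and 9.90 in population 2, and 9.61 and 9.91 in population 3. In CDX males it was 9.86 and 9.95, 9.93 and 9.93, and 9.68 and 9.98. In MLX males it was 9.40 and 9.94, 9.70 and 9.66, and 9.89 and 10.00. The lowest array, MLX 1-1, was the highest for tim, and the highest array, Control 1-1, was among the lowest for tim. The means were 9.81 ± 0.17 in Control, 9.89 ± 0.11 in CDX and 9.76 ± 0.22 in MLX (SD, n = 6 arrays).

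Pdp1, the activator of Clk, ranged over 0.96 log2 units, with its lowest, median and highest arrays at 9.12, 9.20 and 9.47 in Control, 8.63, 8.95 and 9.33 in CDX, and 8.67, 9.24 and 9.59 in MLX males. Control was the narrowest of the 3 groups, and its values lay inside the range of MLX. cwo, a repressor that acts on the targets of CLK and CYC, lay between 10.45 and 10.65 in Control, between 10.43 and 10.70 in CDX, and between 10.33 and 10.75 in MLX males. Its second probe set followed the first with only r = 0.24 over 18 arrays.

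**Figure D1:**
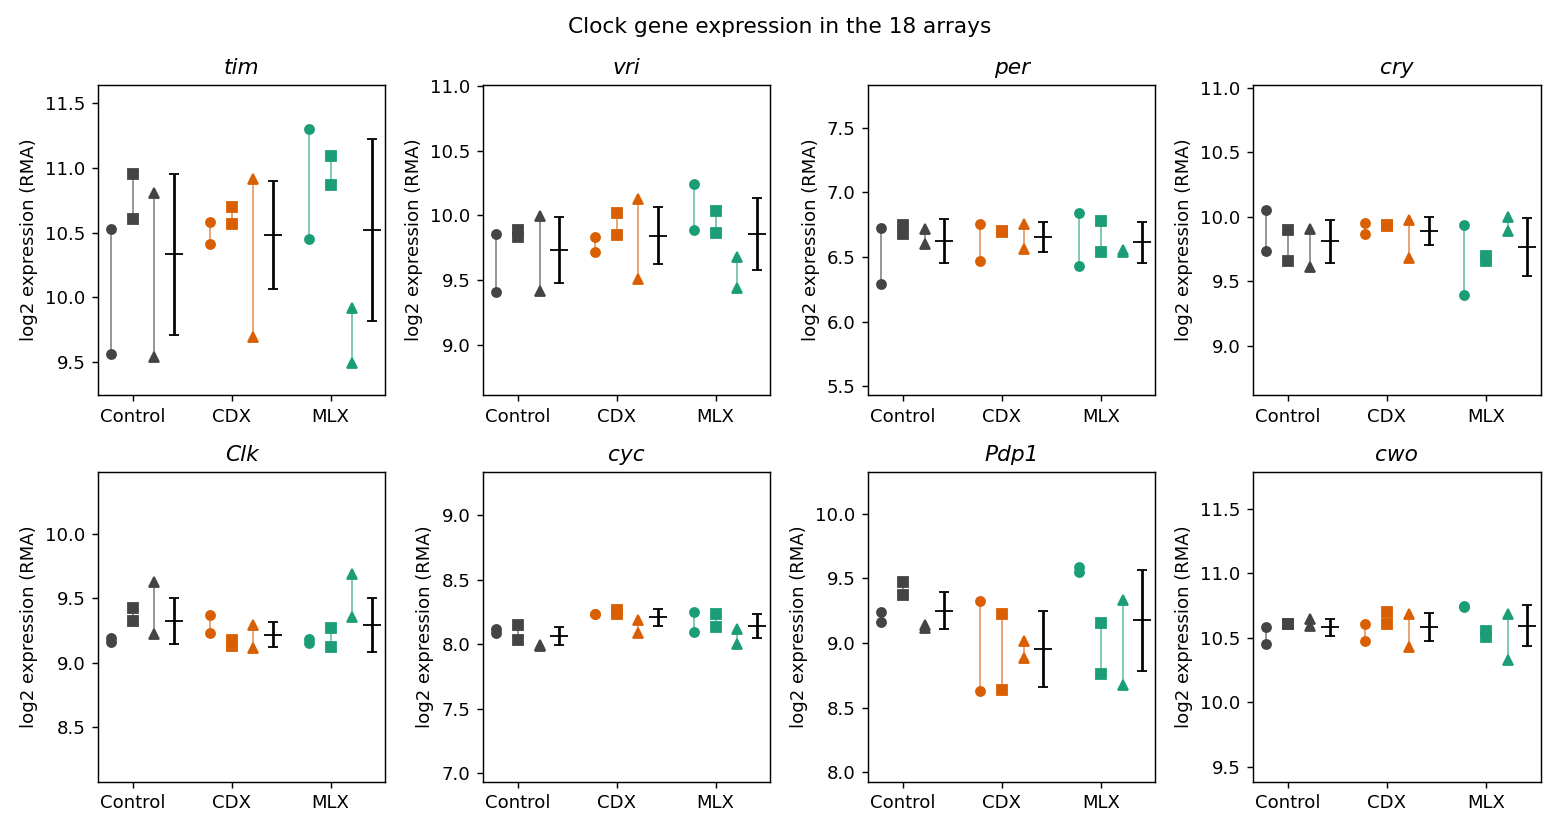
Log2 expression (RMA) of the 8 clock genes on the vertical axis of each panel, which has the same span in every panel, by treatment on the horizontal axis. Points are arrays, a line joins the arrays of a population (circle, square and triangle for populations 1, 2 and 3), and the black bar is the mean with SD of 6 arrays; tim spreads over 1.81 log2 units and cyc over 0.28, with overlapping treatments in every panel.

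Part of this spread lay between arrays of the same population. The SD within populations was 0.54 for tim, above that of 99.7% of the 18769 probe sets tested, and above 99.9% of those with a similar mean. It was 0.28 for Pdp1 (98.4%), 0.26 for vri (97.9%), 0.19 for cry (93.8%) and 0.17 for per (91.0%). The SD of Clk (0.14) lay above 78.2%, that of cwo (0.12) above 59.6% and that of cyc (0.06) above only 12.4% of probe sets, beside a median of 0.11 over all of them. tim, Pdp1, vri, cry and per were thus above at least 91.0% of probe sets, and cyc was among the steadiest. Arrays within populations held 80.3% of the sum of squares within treatments for per, 71.0% for cry, 61.6% for vri, 48.5% for tim and 42.3% for Clk, where the median over all probe sets was 50.3%. With no difference between populations, the degrees of freedom alone would put this share above that median. The shares of tim and Clk lay below it. The size of the difference between the 2 arrays of a population in tim ran from 0.13 in CDX population 2 to 1.27 in Control population 3. In 8 of the 9 populations the array with more tim also had more vri, the exception being CDX population 2.

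Across the arrays cry ran against per, tim and vri, the genes it opposes in a light-dark cycle, and Clk did so less firmly. All 10 pairs among per, tim, vri, Clk and cry were tested by a two-sided permutation of the 18 arrays (100000 resamples), with Benjamini-Hochberg adjustment over the 10 pairs. The permutation takes the 18 arrays as independent, although each population gave 2. Of the 6 pairs of per, tim or vri with Clk or cry, all had a negative r, and 5 passed an adjusted p of 0.05. Of the other 4 pairs, those among per, tim and vri and that of Clk with cry, all had a positive r and 3 passed. In-phase and antiphase are used below for these groups of pairs.

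Among the in-phase pairs, tim and vri had r = 0.94 (rho = 0.85, adjusted p = 1e-04, where the raw p is the smallest that the permutations can give). Without the 2 arrays farthest from the median of tim, r was 0.92. per followed vri with r = 0.71 (rho = 0.61, adjusted p = 0.0030) and tim with r = 0.68 (rho = 0.69, adjusted p = 0.00408), and these r were 0.75 and 0.68 without the 2 farthest arrays of per. Clk and cry had r = 0.32 (rho = 0.29), which did not pass (adjusted p = 0.215).

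Among the antiphase pairs, those with cry were the strongest. tim and cry had r = −0.75 (rho = −0.76, adjusted p = 0.00175), vri and cry r = −0.72 (rho = −0.66, adjusted p = 0.00223), and per and cry r = −0.64 (rho = −0.63, adjusted p = 0.00732). Without the 2 farthest arrays these r were −0.83, −0.70 and −0.57, and all 3 pairs still passed. The pairs with Clk were weaker, with r = −0.49 for tim (rho = −0.44), r = −0.50 for vri (rho = −0.52), both with an adjusted p of 0.0440, and r = −0.17 for per (rho = −0.21, adjusted p = 0.513). These p belong to r, and by rho tim and Clk did not pass (adjusted p = 0.0886, permutation). Without the 2 farthest arrays tim and Clk had r = −0.32 (adjusted p = 0.243) and vri and Clk r = −0.53 (adjusted p = 0.0569), so neither call with Clk held. Both were also lost without Control population 3, without any one of the 3 CDX populations, and without any one of the 3 MLX populations, and over all populations left out in turn their r ran from −0.63 to −0.36 for tim and from −0.65 to −0.37 for vri.

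**Figure D2:**
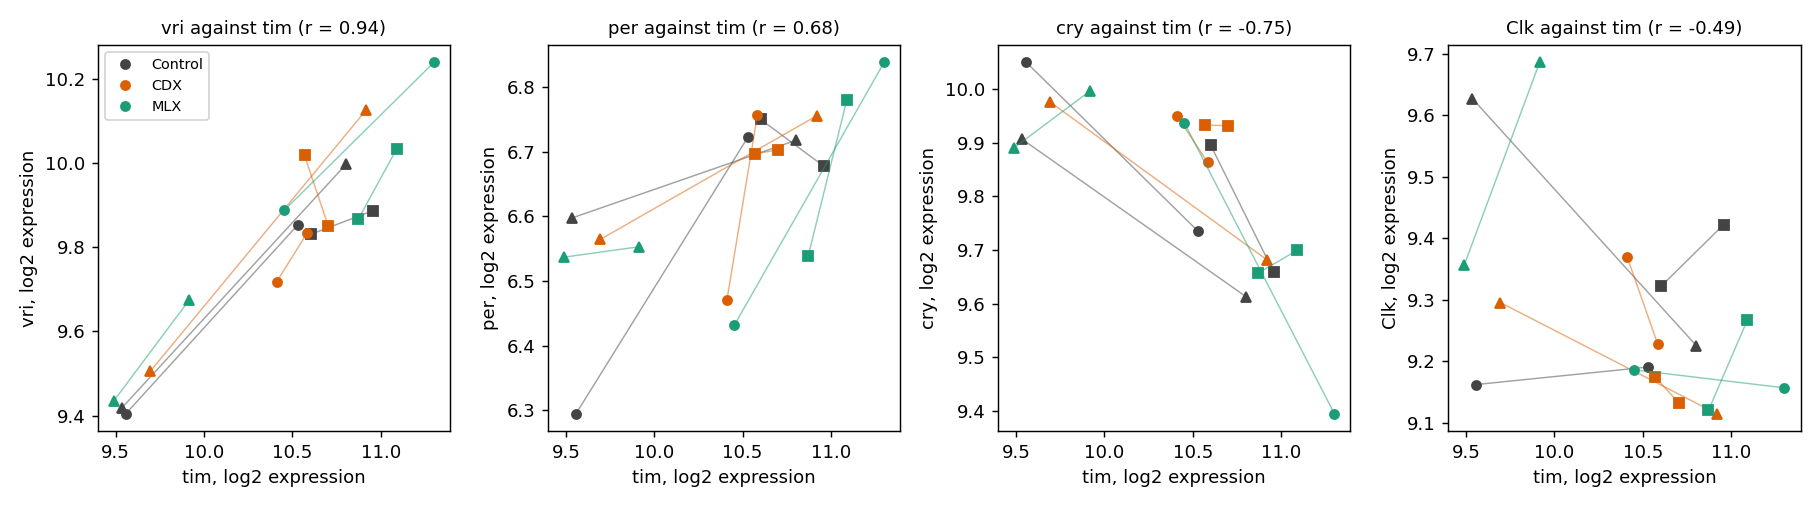
Log2 expression of vri, per, cry and Clk (vertical axes) against that of tim (horizontal axis) in the 18 arrays, with r over all arrays above each panel. Colours are treatments, symbols are populations (circle, square and triangle for 1, 2 and 3), and a line joins the arrays of a population; vri rises with tim (r = 0.94) and cry falls (r = −0.75), with the 3 treatments intermixed.

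Since the 5 arrays low in tim stand apart, the pairs were also computed in the 13 arrays above the gap, a choice made with the values in view. There tim and vri had r = 0.77 (adjusted p = 0.0100 by permutation), tim and cry r = −0.87 (adjusted p = 0.0022) and vri and cry r = −0.70 (adjusted p = 0.0228), all 3 still past the threshold. The other 5 pairs that had passed over all arrays did not pass here. per had r = −0.49 with cry (adjusted p = 0.155, permutation) and 0.58 and 0.59 with tim and vri (adjusted p = 0.0766 for both, permutation), tim and Clk had r = −0.14 (adjusted p = 0.683, permutation) and vri and Clk r = −0.45 (adjusted p = 0.177, permutation). The 5 arrays below the gap are too few for a value. Within a treatment, tim and vri had r = 0.97 in Control, 0.90 in CDX and 0.96 in MLX, and tim and cry had r = −0.84, −0.67 and −0.82 (6 arrays each). All 6 antiphase pairs were negative within CDX and within MLX, and 5 within Control, where per and Clk had r = 0.18.

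Between arrays of the same population the r of tim with cry was also negative, but it did not pass after adjustment. In MLX populations 2 and 3 the array with more tim also had more cry. For the differences between the 2 arrays in the 9 populations, r was 0.97 for tim with vri (adjusted p = 0.0781 by an exact sign-flip permutation) and −0.85 for tim with cry (adjusted p = 0.107 by the same exact test). Unlike the other r given here, that of the differences was computed about 0 rather than about their mean. Over the 9 population means, r was 0.93 for tim with vri (adjusted p = 0.0036, permutation) and −0.66 for tim with cry (adjusted p = 0.113, permutation). No antiphase pair passed in either of these smaller sets of 9 values, where 1 had an unadjusted p under 0.05 for the differences and 0 for the means, and all 6 were negative in both.

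The other 3 genes followed this pattern less. Of the 18 further pairs that involve cyc, Pdp1 or cwo, none passed after adjustment over these 18 by permutation, and 2 had an unadjusted p under 0.05. These were Pdp1 with cwo (r = 0.58, unadjusted p = 0.0111, adjusted p = 0.20, permutation) and vri with cwo (r = 0.48, unadjusted p = 0.0419, adjusted p = 0.377, permutation). cwo and Pdp1, which are targets of CLK and CYC like tim, had r with tim of 0.40 and 0.24.

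**Figure D3:**
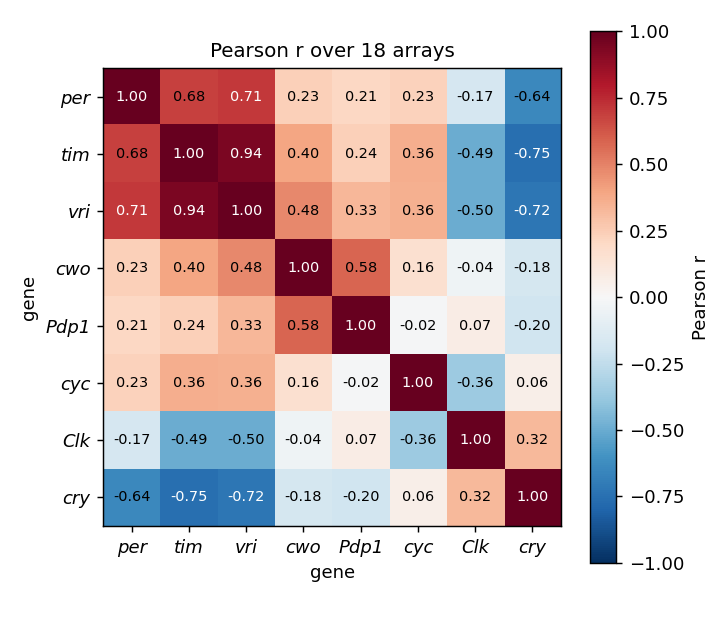
Pearson r over 18 arrays for each pair of the 8 clock genes, on a colour scale from −1 (blue) to 1 (red). per, tim and vri form a positive block (0.68 to 0.94) that is negative against cry (−0.64 to −0.75) and less so against Clk (−0.17 to −0.50), while cwo, Pdp1 and cyc stand between.

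The pattern was put on 1 axis as the mean of per, tim and vri minus the mean of Clk and cry in each array, given as the deviation from the mean of 18 arrays. It is a description built from the pairs above. It was lowest in Control 3-2 (−0.66), Control 1-1 (−0.60), MLX 3-1 (−0.55), MLX 3-2 (−0.54) and CDX 3-2 (−0.46), and highest in MLX 1-1 (0.77), CDX 3-1 (0.46) and MLX 2-1 (0.41). The highest Control array was 3-1 (0.34). Each treatment held arrays well below and above 0, and the means were −0.08 ± 0.44 in Control, 0.03 ± 0.32 in CDX and 0.06 ± 0.53 in MLX (SD, n = 6 arrays). The SD within populations was 0.42, and arrays within populations held 56.3% of the sum of squares within treatments, beside a median of 50.3% over all probe sets. With no difference between populations, the degrees of freedom alone would put this share above 56.3%. The arrays of 1 population lay farthest apart in Control population 3 (0.34 and −0.66), followed by CDX population 3 (0.46 and −0.46) and MLX population 1 (0.77 and −0.05).

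**Figure D4:**
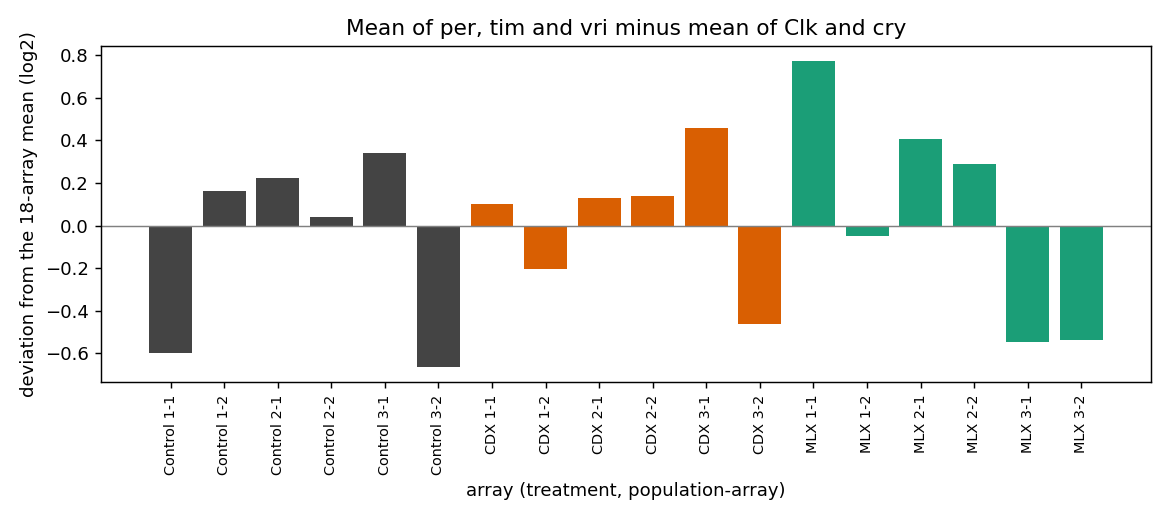
Mean log2 expression of per, tim and vri minus that of Clk and cry in each of the 18 arrays, as the deviation from the mean of all arrays (vertical axis, log2 units), with arrays named by treatment, population and array number. Bars start at 0, and the 5 lowest arrays (−0.66 to −0.46) come from all 3 treatments.

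CDX against Control sets sons of DX mothers, with the father's X and the mother's Y, beside males of the usual inheritance, and MLX against CDX sets many generations of father-to-son X beside 1 generation, while MLX against Control joins both. Effects of the mother, of the Y, of the X and of the autosomes cannot be told apart in the comparisons with Control. MLX and CDX males differ in the father's population, so effects of his X and of his autosomes cannot be told apart there. For none of the 8 clock genes did a difference between treatments pass the test against the spread between arrays and populations. In limma, with treatment fixed and the 9 populations as a random block, 0 of 8 passed an adjusted p of 0.05 in CDX against Control, where the background was 0.00% of all probe sets, 0 of 8 in MLX against Control (0.00%), and 0 of 8 between MLX and CDX (0.00%). At an unadjusted p of 0.05, 1 of 8 passed in CDX against Control beside 2.98% of all probe sets, 0 of 8 in MLX against Control beside 4.19%, and 0 of 8 in MLX against CDX beside 2.61%. The 1 gene was cyc, which was 0.15 (SE 0.05) higher in CDX than in Control on the log2 scale (unadjusted p = 0.0128, limma), with 5 of 6 CDX arrays above the highest Control array but an adjusted p of 1.00.

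The intervals show what the arrays could resolve under the correlation within populations of 0.19 that the fit shares among all probe sets. For a gene with a larger correlation they are too narrow. This may hold for tim and Clk, which had the highest F between populations (2.34 and 2.48, described below). tim was 0.15 higher in CDX than in Control, with a 95% confidence interval from −0.56 to 0.85, and 0.19 higher in MLX than in Control, with an interval from −0.51 to 0.89. The second probe set of tim differed by −0.10 (−0.43 to 0.24) and 0.22 (−0.12 to 0.56), so the sign in CDX depends on the probe set, and between MLX and CDX it gave 0.32 (−0.02 to 0.65) where the first gave 0.04 (−0.66 to 0.74). For vri the same differences were 0.11 (−0.20 to 0.42) and 0.12 (−0.19 to 0.44), and for X-linked per 0.03 (−0.17 to 0.23) and −0.01 (−0.21 to 0.19). Clk differed by −0.11 (−0.31 to 0.10) and −0.03 (−0.24 to 0.18), and cry by 0.08 (−0.14 to 0.30) and −0.05 (−0.27 to 0.18). Pdp1 was lower by more than the others in CDX, at −0.30 (−0.65 to 0.06), and cwo differed by 0.00 (−0.16 to 0.16) and 0.01 (−0.14 to 0.17), where the sign of cwo turned under median centring in CDX and under repeated quantile normalization in both. With the photoreceptor mean or the 3' to 5' difference of each array, both described below, as a covariate, the differences between MLX and Control of tim, vri, Clk and cry turned sign, and so did those of tim and vri between MLX and CDX. For tim the intervals leave room for differences of over 0.5 log2 units in either direction, and for cyc, cwo, per and Clk they are narrower.

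**Figure D5:**
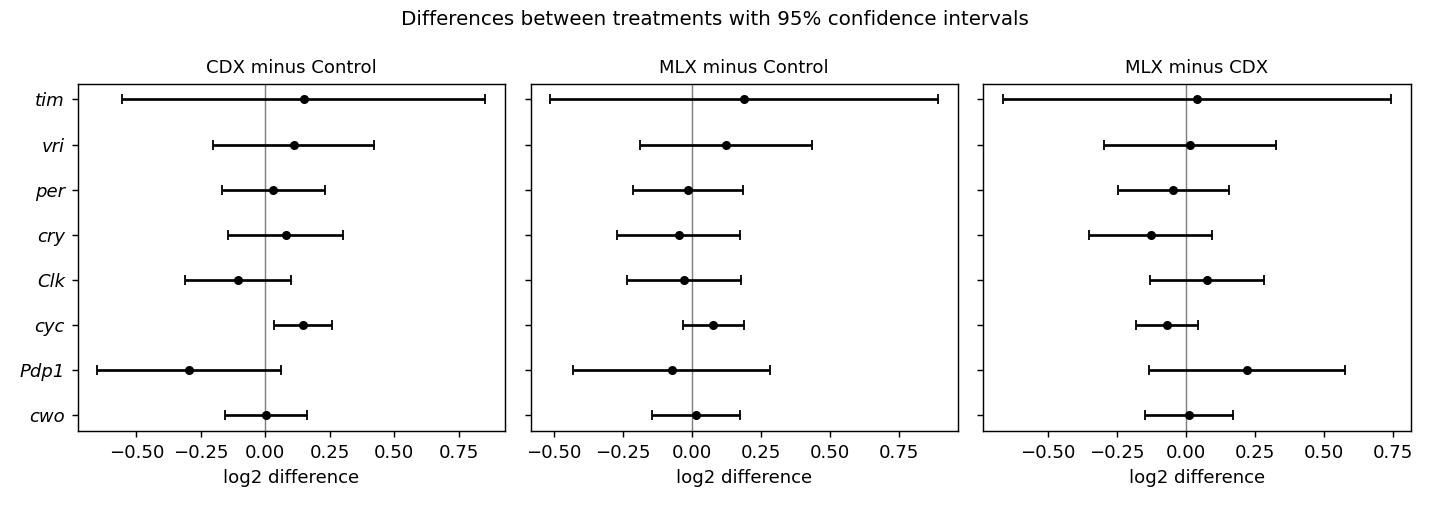
Log2 difference between treatments (horizontal axis) for the 8 clock genes (vertical axis) in 3 panels, one per comparison. Points are limma estimates from 18 arrays and bars are 95% confidence intervals, which are widest for tim and include 0 for every gene but cyc in CDX minus Control.

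The populations within treatments were compared by limma's moderated F test, with the spread between the 2 arrays of a population as error. Of the 8 genes 0 passed an adjusted p of 0.05, beside 1.35% of all probe sets, and 0 passed an unadjusted p of 0.05, beside 16.8%. The lowest p belonged to Clk (F = 2.48, adjusted p = 0.339) and tim (F = 2.34, adjusted p = 0.357). These F depended on single populations. With each left out in turn they ran from 1.37 (without MLX population 3) to 3.78 (without Control population 3) for Clk and from 0.72 to 3.64 for tim, at the same populations. Without Control population 3 the unadjusted p was 0.0260 for Clk and 0.0296 for tim, and without CDX population 3 it was 0.0327 for tim, with adjusted p of 0.265, 0.275 and 0.267 in limma. For tim the population means ran from 9.70 in MLX population 3 to 10.98 in MLX population 2, and for Clk from 9.15 in CDX population 2 to 9.52 in MLX population 3. MLX population 3 was thus the lowest for tim and the highest for Clk. The populations at the other end differed between the 2 genes, and neither gene passed the test.

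Genes that act around the core loops also passed no test between treatments. The lists were 7 measured genes of 12 for kinases, phosphatases and protein degradation, such as dco (doubletime), which phosphorylates PER, and slmb, which targets it for degradation. Cofactors and regulators gave 7 of 9, signalling of clock neurons 4 of 4, and outputs rhythmic in fly heads 6 of 6. In each list 0 genes passed an adjusted p of 0.05 (limma) in any of the 3 comparisons of treatments or between populations. At an unadjusted p under 0.05 between populations there were 2 of 7, 1 of 7, 0 of 4 and 3 of 6, beside 16.8% of all probe sets. Between treatments the kinases had 1 such gene in CDX against Control and 1 in MLX against CDX, and the outputs 1 for each of MLX against Control and MLX against CDX, while the other lists had 0. Such a p was found for 2.98% of all probe sets between CDX and Control, for 4.19% between MLX and Control, and for 2.61% between MLX and CDX. The kinase was dco both times, named here after its values were seen, at −0.12 (SE 0.05) in CDX against Control and 0.12 (SE 0.05) in MLX against CDX. The median r of these 4 lists with tim ran from −0.22 to −0.06, beside a median of −0.01 over all probe sets, while single genes of them reached from −0.59 to 0.44.

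In place of to, 13 measured genes of its family (16 listed, chosen after it was seen that to had no named probe set) were examined. None passed an adjusted p of 0.05 in limma in any comparison, between populations included. In MLX against Control 11 of 13 were higher, beside 9620 of 18769 probe sets, with a median difference of 0.07 beside 0.00 over all probe sets. At an unadjusted p under 0.05 there were 4 of 13 in this comparison (4.19% of all probe sets), 1 in CDX against Control (2.98%), 1 in MLX against CDX (2.61%) and 6 between populations (16.8%). The median r of the family with tim was −0.02.

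The probe sets most like each gene were ranked by r over 18 arrays, as a description. The neighbours named for each gene come from the probe sets that carry 1 gene, while places count all 18768 probe sets. Of 18768 probe sets, vri was the one most like tim. Among those that carry 1 gene it was followed by CG3739 (r = 0.91), CG34040 (r = 0.91 and 0.88 in its 2 probe sets) and CG9886 (r = 0.90). CG34040 had a wide range of its own, from 5.28 to 9.00. per came at place 86 and the second probe set of tim at place 77. Lowest against tim were CG17562 (r = −0.89), CG5404 (r = −0.83), CG17560 (r = −0.83), Ugt36D1 (r = −0.80) and Trx2 (r = −0.77), and cry was at place 9 from that end.

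Clk had other neighbours. Highest were app (r = 0.89), Ae2 (r = 0.88), Slik (r = 0.87), mnd (r = 0.82) and dpr15 (r = 0.82), and lowest were CG11679 (r = −0.89), Coq7 (r = −0.84), CG12171 (r = −0.84), CG34448 (r = −0.83) and Cox17 (r = −0.81). tim and vri came only at places 1522 and 1450 from the lower end. Over all probe sets the r with Clk ran from −0.55 to 0.56 between the 5th and 95th percentiles, and its r with tim and vri lay inside these. For tim the same percentiles were −0.45 and 0.43, so that among r with tim that of Clk (−0.49, place 600 from the lower end) lay outside them. For cry they were −0.37 and 0.40. cry, taken as a further gene to rank from after the values were seen, was nearest to CG11951 (r = 0.82), peg (r = 0.80) and CG17560 (r = 0.80), and farthest from Nepl17 (r = −0.85) and the second probe set of tim (r = −0.77).

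Some measures of the arrays moved with these genes. The mean of 6 measured photoreceptor genes (of 13 listed, none near 0) ran from 11.06 to 11.18 in Control, from 11.05 to 11.16 in CDX and from 10.99 to 11.16 in MLX arrays, and its r over 18 arrays was −0.53 with tim, −0.55 with vri, 0.48 with Clk and 0.36 with cry. The 6 genes did not move alike. Their r with tim ran from −0.59 (chp) to 0.38 (Arr2), and with cry from −0.49 (Arr2) to 0.60 (inaC). The difference between 3' and 5' probe sets of 4 control transcripts, a measure of RNA integrity and labelling, ran from 1.38 to 1.62 in Control, from 1.36 to 1.58 in CDX and from 1.19 to 1.503 in MLX arrays, with r of −0.44 for tim, −0.44 for vri, 0.46 for Clk and 0.44 for cry. Clk also followed the mean of 5 testis genes (r = 0.58) and the array median (r = 0.51), and cry the mean of 7 fat body genes (r = 0.45). The yolk and eggshell mean had r = 0.27 with tim. With the photoreceptor mean taken out of both genes, tim and vri had r = 0.92 and tim and cry r = −0.71, and with the 3' to 5' difference taken out 0.93 and −0.69, each past an adjusted p of 0.05 by permutation. tim and Clk fell to r = −0.32 and −0.36 in these settings and no longer passed, with adjusted p of 0.242 and 0.170 by permutation. The part of these measures in the pairs with Clk was not tested further.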

How the data were processed

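RNA of 18 arrays (3 treatments, 3 populations each, 2 arrays per population) was measured on an Affymetrix Drosophila array. The deposited values are log2 expression, which the authors obtained with RMA (package affy, version not given in the sources here), and they were used as they stand. Affymetrix controls (183 probe sets) were not tested, and 18769 probe sets remained, with no filter on low values, of which 13647 carried 1 gene, 402 several and 4720 none. Arms were taken from RefSeq. The members and gene lists were chosen with earlier results of these data known.

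The fit in limma 3.58.1 (R 4.3.3) held treatment as fixed and, through duplicateCorrelation, the 9 populations as random (estimated correlation 0.19), followed by eBayes, as the paper's methods treat population as random within treatment. At a false discovery rate of 0.05 the paper reports transcripts that differ between treatments, whereas this fit called none. The paper also states that uninformative transcripts were filtered out. The cause of the difference was not tested. Populations within treatments were compared with population fixed, by a moderated F test on 6 degrees of freedom. The p of both fits were adjusted by Benjamini-Hochberg over 18769 probe sets, and those of pairs over the 10 or the 18 pairs tested. Correlations used Python 3.11.15 with numpy 2.4.6, pandas 2.3.3 and scipy 1.17.1, and figures matplotlib 3.10.9. All 9 listed genes were to be named, with the 5 probe sets of a single gene highest and lowest in r to tim, Clk and to. cry was added in place of to. Of the gene lists, examples were otherwise chosen for their role. Both fits were tested on simulated data.

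Other settings were arrays taken as independent, population means, a block by population number, median centring, repeated quantile normalization, the mean of a gene's probe sets, the yolk and eggshell mean, the photoreceptor mean or the 3' to 5' difference as a covariate, and each population left out in turn. Settings chosen after seeing the data were the 13 arrays above the gap in tim, each treatment alone, the further pairs and the family of to. No sequences were used.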

Additional observations from a re-analysis of the deposited data

Results flagged for a closer look

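In 33 groups of 6 arrays, the distance of the lowest or highest array to the next was compared with the range of the group (Dixon's test), a rule under which about 1 in 20 groups is marked by chance. In Control males, per was far lower in array 1-1 (6.29) than in the next array (6.60). In Control males, cwo was lower in array 1-2 (10.45) than in the next (10.58), but CDX 3-2 (10.43) and MLX 3-1 (10.33) were lower still. Both arrays came from Control population 1, and Control 1-1 was also among the 5 arrays lowest in tim and vri.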

How the results depend on the processing

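The count of clock genes past the threshold was 0 in every treatment and population setting that was run, the replicate block by population number included. Same-numbered populations of different treatments correlated in their deviations from −0.14 to 0.38, and differently numbered ones from −0.33 to 0.22. The pairs numbered 3 ran from 0.14 to 0.24, those numbered 2 from 0.08 to 0.16, and those numbered 1 from −0.14 to 0.38. The values of same-numbered and differently numbered pairs overlapped, and the main fit did not pair populations by number. Whether the numbers mark related populations was not tested.

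The count of antiphase pairs past the threshold, 5 of 6, was 3 with the photoreceptor mean or the 3' to 5' difference taken out and without the 2 farthest arrays, 2 in the 13 arrays above the gap in tim, and 0 over population means, within-population differences and within Control, CDX or MLX. It was 3 to 5 with a population left out. The call of tim and Clk was also lost by rho (adjusted p = 0.0886, permutation). The same held with the mean of a gene's probe sets (adjusted p = 0.0917, permutation). The pair of per and Clk turned to 0.18 within Control.

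Several uncalled differences turned sign. cwo in CDX against Control was −0.0047 under median centring, −0.0093 under repeated quantile normalization, −0.0285 as the mean of its probe sets, −0.0111 with the yolk and eggshell covariate and −0.0142 with the photoreceptor covariate. In MLX against Control, cwo was −0.00018 under repeated quantile normalization, −0.0651 as the mean of probe sets and −0.0540 with the photoreceptor covariate, and in MLX against CDX −0.0366 and −0.0397 in the latter settings. With the 3' to 5' and the photoreceptor covariate, MLX against Control was 0.0454 and 0.0127 for cry, 0.0842 and 0.0723 for Clk, −0.13 and −0.16 for tim, and −0.0087 and −0.0266 for vri, and MLX against CDX was −0.26 and −0.23 for tim and −0.11 and −0.10 for vri.

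With each population left out, CDX against Control ran from −0.0321 to 0.0243 for cwo and from −0.0279 to 0.0748 for per. MLX against Control ran from −0.0605 to 0.0583 for cwo, −0.27 to 0.0358 for Pdp1, −0.14 to 0.0011 for cry, −0.14 to 0.0325 for Clk, −0.0410 to 0.60 for tim and −0.0726 to 0.0300 for per. MLX against CDX ran from −0.0631 to 0.0556 for cwo, −0.0369 to 0.14 for Clk, −0.19 to 0.45 for tim and −0.0897 to 0.16 for vri. The causes were not tested. With 6 arrays a group and 9 populations, the interval of the difference in tim included 0 in every comparison of treatments.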

Other observations

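Among the lists of other tissues, 3 genes differed between populations within treatments by limma's moderated F test. These were Lsp2, a larval serum protein of the fat body (F = 13.8, adjusted p = 0.0130), and the seminal fluid genes Acp36DE (F = 14.9, adjusted p = 0.00953) and Acp26Aa (F = 10.0, adjusted p = 0.0294). The fat body list had 1 of 7 genes past the threshold, the accessory gland list 2 of 4, beside 1.35% of all probe sets, and the photoreceptor (6), testis (5) and yolk and eggshell (13) lists none. Lsp2 differed by −1.73 (SE 0.32) on the log2 scale in MLX minus Control, with an adjusted p of 0.223 in limma. This SE rests on the correlation of 0.19 shared by all probe sets. As Lsp2 differed strongly between populations, the SE understates its uncertainty. Its Control arrays ran from 10.31 to 12.18 and its MLX arrays from 8.77 to 10.62. For CDX against Control, the 13 yolk and eggshell genes all had positive differences, beside 9518 of 18769 probe sets. Their median difference was 0.71 beside 0.00 over all probe sets, and none had an unadjusted p under 0.05 in limma. In MLX against Control 13 of 13 were also positive (median 0.34), beside 9620 of 18769 probe sets. In MLX against CDX 12 of 13 were negative (median −0.32), where 9578 of 18769 probe sets were positive, again with none at an unadjusted p under 0.05. These genes moved together in a few arrays, so they are not separate observations. The mean of the list was 7.56, 7.77 and 7.03 in CDX 1-1, 2-1 and 3-1, and 6.29, 5.74 and 5.99 in CDX 1-2, 2-2 and 3-2. It was 7.30 in Control 2-1, 8.08 in MLX 2-2 and 7.02 in MLX 3-2, and at most 5.95 in the other Control and MLX arrays.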
